A study of Mus musculus with 2 samples.

Results

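The 9 genes described here, Sall1, Sall3, Mef2a, Mef2c, Irf8, Spi1, Runx1, Maf and Cebpa, encode transcription factors of the microglial lineage. They were chosen by name and make up 9 of the 32285 genes in the count tables, and all 9 were present in both libraries. Microglia of the lumbar spinal cord of male mice, 8 to 10 weeks old, were sorted as CD45lo CD11b+ CX3CR1+ cells and captured in droplets for scRNA-Seq. There was 1 control library, labelled WT, from mice whose genotype a figure legend of the study gives as Eif4ebp1 fl/fl, and 1 library labelled 4E-BP1 cKO, from Eif4ebp1 fl/fl:TMEM119 CreERT2 mice. In the latter, tamoxifen-dependent Cre under the promoter of the microglial gene Tmem119 deletes Eif4ebp1, which encodes the translational repressor 4E-BP1, after injections of 4-hydroxytamoxifen from P4 to P9. Whether the control mice of this experiment received 4-hydroxytamoxifen, and how many mice stood behind each library, is not stated in the paper or the labels.

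Microglia descend from yolk sac progenitors that depend on RUNX1 and PU.1, the product of Spi1. PU.1 binds enhancers in all macrophages together with partners such as IRF8 and C/EBP alpha, the product of Cebpa. SALL1, SALL3, members of the MEF2 family and MAF are associated with the genes that set microglia apart from other macrophages, and SALL1 is known as a repressor of reactive states in these cells.

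Molecules were tagged with unique molecular identifiers (UMIs), which lets PCR copies of 1 molecule be counted once. A barcode was kept if it had over 300 genes detected and if mitochondrial genes made up less than 5% of its UMIs. After this filter 1147 control cells remained, with 4803562 UMIs in all and a median depth of 3053 per cell. The 445 4E-BP1 cKO cells that remained had 1734332 UMIs in all and a median depth of 2776. No barcode was shared between the libraries (0 shared barcodes). At least 3 of 8 microglial markers were detected in 93.9% of control and 89.7% of 4E-BP1 cKO cells. At least 3 markers of another cell type (border-associated macrophages, T cells, oligodendrocytes or endothelial cells) were found in 10 control and 3 4E-BP1 cKO cells. Among markers of other immune cells, Cd163, Cd209f, Ly6c2 and Ncr1 were at 0 in both, but others had UMIs. In control and 4E-BP1 cKO cells the summed markers of border-associated macrophages reached 17.9 and 6.34 CPM. Those of monocytes reached 7.08 and 1.73 CPM, and those of B cells 13.3 and 12.7 CPM. The microglial markers summed to 9862 and 9464 CPM. Eif4ebp1 had 95 UMIs (19.8 CPM) in control and 51 UMIs (29.4 CPM) in 4E-BP1 cKO cells, and reads from the 3′ end do not report on an upstream deletion, so this gene checks no label. Tmem119, the gene whose promoter drives Cre, had 433 CPM in the control and 142 CPM in the 4E-BP1 cKO library.

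Levels are given as CPM, the UMIs of a gene summed over the kept cells, per 1000000 UMIs of the library. With 1 library per genotype there was no test between genotypes. The 95% intervals in brackets (exact Poisson for CPM, exact conditional for ratios, Clopper-Pearson for shares of cells) cover counting error only, not the difference between mice. Those for CPM and ratios treat UMIs as independent of the cell. They are thus too narrow for factors whose counts vary among cells more than Poisson counts do.

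All 9 factors were detected in both libraries, and none passed a ratio of 1.5 between the libraries in either direction with an interval that left out 1. The count of 0 of 9 stands beside 8.37% of the 11784 genes with at least 20 UMIs that passed in either direction, 2.52% higher and 5.85% lower in the 4E-BP1 cKO library. Spi1 was higher in the 4E-BP1 cKO library and Maf was lower, each by just under 1.5-fold. Mef2a was slightly lower, Sall3 was lower by a margin that its interval barely cleared, and the intervals of Sall1, Mef2c, Irf8, Runx1 and Cebpa held 1. By the interval alone, 1 of 9 factors was higher, beside 8.02% of all genes, and 3 of 9 were lower, beside 12.7%, which makes 4 of 9 either way beside 20.7%. More counted genes clear an interval more often: of the 1343 genes with at least as many UMIs as the least counted factor, 27.1% were higher and 31.5% were lower by this rule, or 58.6% either way. The median log2 ratio of the 9 factors was -0.03, against -0.06 over all genes tested.

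**Figure D1:**
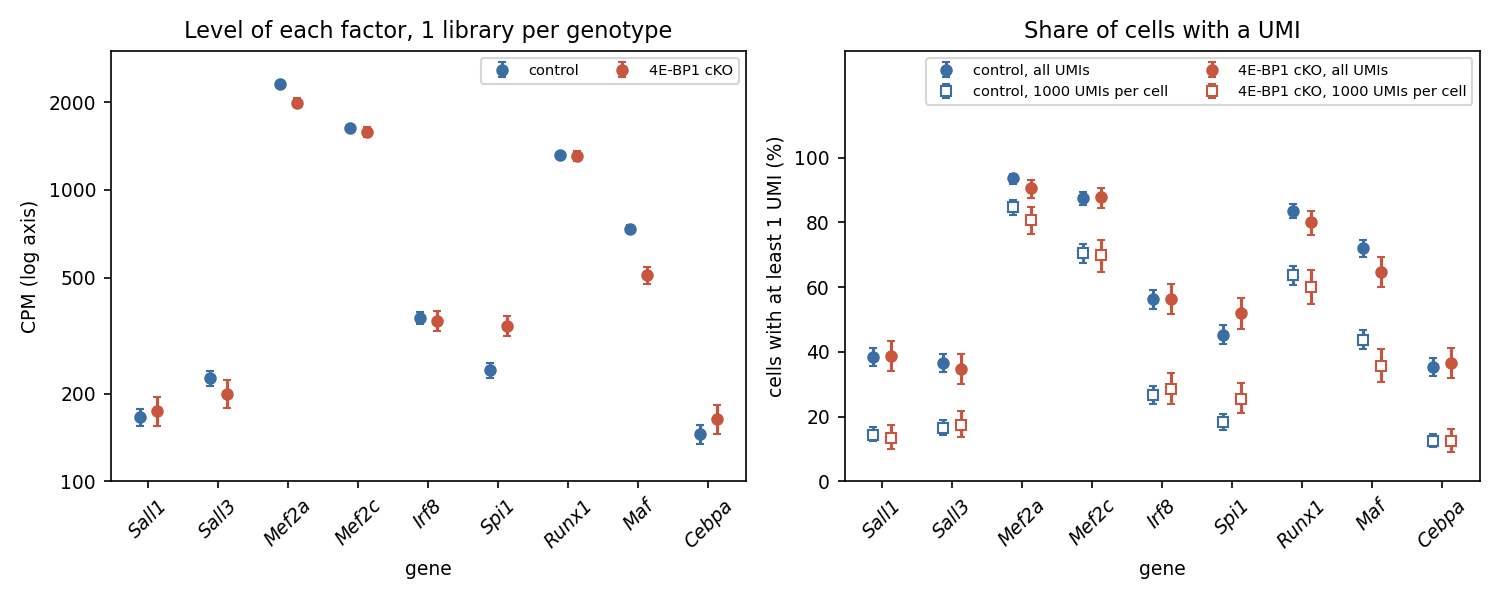
Left, CPM of each factor (log axis) in the control and the 4E-BP1 cKO library, with exact Poisson 95% intervals; right, percent of cells with at least 1 UMI, for all UMIs (circles) and after thinning to 1000 UMIs per cell (squares), with Clopper-Pearson 95% intervals. Mef2a, Mef2c and Runx1 were found in at least 80% of cells of either library at full depth, and the levels of Spi1 and Maf separate between the libraries.

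For 3 of the 12 promoter windows that RefSeq gives for these factors, the sequence is shown because PU.1, itself among the 9, binds the core GAGGAA. The windows run from 250 bases before to 50 bases after a transcription start (GRCm38.p6). Windows were found for 6 of the 9 factors. The core, sought on both strands, was present in 4 of the 12 windows, beside 28.3% of all 32851 windows. Capitals mark the core as read on the strand of the gene.
Mef2a, chr7:67372809-67373108, minus strand: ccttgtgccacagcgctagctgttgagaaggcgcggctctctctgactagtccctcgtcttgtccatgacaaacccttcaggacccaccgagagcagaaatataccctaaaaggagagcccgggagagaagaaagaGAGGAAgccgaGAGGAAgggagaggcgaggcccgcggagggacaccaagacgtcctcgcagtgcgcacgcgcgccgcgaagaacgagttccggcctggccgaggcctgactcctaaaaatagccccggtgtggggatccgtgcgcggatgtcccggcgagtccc
Mef2c, chr13:83503784-83504083, plus strand: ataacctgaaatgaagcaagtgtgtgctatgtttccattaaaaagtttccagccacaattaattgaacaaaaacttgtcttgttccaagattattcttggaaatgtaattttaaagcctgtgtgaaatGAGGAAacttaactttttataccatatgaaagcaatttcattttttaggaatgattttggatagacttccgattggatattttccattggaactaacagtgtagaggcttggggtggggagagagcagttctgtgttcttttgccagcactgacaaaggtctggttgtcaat
Mef2c, chr13:83523406-83523705, plus strand: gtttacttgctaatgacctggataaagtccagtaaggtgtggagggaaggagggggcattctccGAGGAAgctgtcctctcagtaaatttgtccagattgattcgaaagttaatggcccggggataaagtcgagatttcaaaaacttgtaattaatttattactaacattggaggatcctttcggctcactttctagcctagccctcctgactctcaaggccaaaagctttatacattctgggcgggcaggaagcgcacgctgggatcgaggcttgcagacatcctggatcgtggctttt
The Mef2a window held 2 cores, 2 of the 3 Mef2c windows held 1 each, and 1 Runx1 window held the remaining one. A RUNX site (TGTGGT) lay in 1 window, of Runx1, beside 16.8% of all windows, and an AP-1 site (TGANTCA) in 1 window, of Mef2c, beside 7.81%. A C/EBP site (TTGCNNAA) was in 0 of the 12, beside 10.8% of all windows, and an interferon-stimulated response element (a pair of GAAA repeats set apart by 2 bases) in 0, beside 3.44%. Each was searched on both strands. A match describes letters in a window and does not show binding.

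Sall1 encodes a zinc finger repressor that is restricted to microglia among the macrophages of the adult mouse. The gene (chr8:89027242-89044162, GRCm38.p6) had 795 UMIs in the control library, or 166 CPM (154 to 177), and 302 UMIs in the 4E-BP1 cKO library, or 174 CPM (155 to 195). The intervals overlapped, and the ratio was 1.05 (0.919 to 1.20). A Sall1 UMI was found in 38.4% of control cells (35.5 to 41.2) and 38.7% of 4E-BP1 cKO cells (34.1 to 43.4). When every cell was thinned to 1000 UMIs, leaving aside the shallower cells (108 of the control and 87 of the 4E-BP1 cKO library), the shares were 14.4% and 13.4%. A Poisson spread of the same mean over cells would give 14.5% and 12.8%. The variance of thinned Sall1 counts over cells was 1.004 and 0.906 times their mean, so these counts spread over cells about as Poisson counts do.

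Its relative Sall3 was spread differently. Sall3, on chromosome 18, had 1084 UMIs in the control library (226 CPM, 212 to 240) and 346 UMIs in the 4E-BP1 cKO library (199.5 CPM, 179 to 222). The 4E-BP1 cKO level was lower in the sums, at a ratio of 0.884 (0.781 to 0.999), but the direction was the opposite after thinning (log2 ratio 0.19) and when each cell counted equally (0.09). In thinned cells a Sall3 UMI was found in 16.5% of control and 17.3% of 4E-BP1 cKO cells, where a Poisson spread would give 20.9% and 23.5%. The variance was 1.75 and 1.80 times the mean. Cells with at least 5 Sall3 UMIs numbered 52 in the control and 16 in the 4E-BP1 cKO library, compared with 17 and 7 for Sall1. Thus Sall3 molecules lay in fewer cells than their mean count would give, in both libraries.

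Both genes are also expressed in other cells of the nervous system. Neuronal markers were near 0 here: Rbfox3 was detected in 1.22% of control and 1.12% of 4E-BP1 cKO cells, and Snap25 in 0.349% and 0.225%. Summed neuronal markers reached 5.83 CPM in control and 6.92 CPM in 4E-BP1 cKO cells. Those of oligodendrocytes were higher, at 67.2 and 120 CPM, as were those of endothelial cells, at 74.7 and 30.6 CPM. Of the 10 control cells with at least 3 markers of another cell type, 3 had a Sall1 UMI and 2 a Sall3 UMI, at a median of 9761.5 UMIs per cell against 3053 in all control cells. Of the same 10 deeper cells, 8 had Mef2a and Mef2c UMIs, 6 had Irf8, Runx1 and Maf UMIs, and 5 had Spi1 and Cebpa UMIs. Of the 3 such cells of the 4E-BP1 cKO library, 0 had Sall1 or Sall3.

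The MADS box factors MEF2A and MEF2C bind as dimers to promoters and enhancers in muscle, neurons and microglia. Mef2a (chr7:67231163-67376456) had 11057 UMIs in the control library, or 2302 CPM (2259 to 2345), and 3454 UMIs in the 4E-BP1 cKO library, or 1992 CPM (1926 to 2059). The 4E-BP1 cKO level lay below that of the control in the sums, without overlap of the intervals, at a ratio of 0.865 (0.833 to 0.899). The direction was not the same in all classes of cells, as described further on. Mef2a was detected in 93.5% of control and 90.6% of 4E-BP1 cKO cells, and in 84.7% and 80.7% at 1000 UMIs per cell. One 4E-BP1 cKO cell held 132 Mef2a UMIs among 35216, the highest count of any factor in a cell.

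Lysmd4 overlaps Mef2a on the opposite strand over 76168 bases, and since the paper and the labels do not say how strand was handled in counting, reads of the pair cannot be told apart with certainty. Lysmd4 was at 1029 CPM in the control and 725 CPM in the 4E-BP1 cKO library, a ratio of 0.705 (0.662 to 0.750), so both genes of this locus were lower in the 4E-BP1 cKO library.

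Mef2c (chr13:83504017-83667079) had 7804 UMIs in the control library, or 1625 CPM (1589 to 1661), and 2735 UMIs in the 4E-BP1 cKO library, or 1577 CPM (1518 to 1637). The intervals overlapped, and the ratio was 0.971 (0.929 to 1.01). Mef2c was detected in 87.4% and 87.9% of cells. Their relative Mef2d was also alike in the sums, at 112 and 109 CPM and a ratio of 0.977 (0.823 to 1.15).

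PU.1, the Ets-family product of Spi1, is required for all macrophages. Spi1 (chr2:91082374-91115759) had 1154 UMIs in the control library, or 240 CPM (227 to 255), and 591 UMIs in the 4E-BP1 cKO library, or 341 CPM (314 to 369). The 4E-BP1 cKO library was the higher, without overlap, at a ratio of 1.42 (1.28 to 1.57). Spi1 was detected in 45.2% of control cells (42.3 to 48.2) and 51.9% of 4E-BP1 cKO cells (47.2 to 56.6), and at 1000 UMIs per cell in 18.3% (16.0 to 20.8) and 25.4% (21.0 to 30.3). At equal depth these intervals of the share did not overlap. The log2 ratio of Spi1 was 0.50 and lay between 0.38 and 0.72 over the 14 ways of computing it, passing 1.5-fold among cells under 3% ribosomal protein UMIs.

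IRF8 is the interferon regulatory factor that pairs with PU.1 and is needed for microglial development. Irf8 (chr8:120736358-120756694) had 1742 UMIs in the control library, or 363 CPM (346 to 380), and 616 UMIs in the 4E-BP1 cKO library, or 355 CPM (328 to 384). The intervals overlapped at a ratio of 0.979 (0.892 to 1.07), and the gene was detected in 56.2% and 56.4% of cells.

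C/EBP alpha is a leucine zipper factor of the myeloid lineage. Cebpa (chr7:35119293-35121928), a gene without introns, had 698 UMIs in the control library, or 145 CPM (135 to 157), and 283 UMIs in the 4E-BP1 cKO library, or 163 CPM (145 to 183). The intervals overlapped, with a ratio of 1.12 (0.975 to 1.29). It was detected in 35.2% and 36.4% of cells, and the thinned shares of 12.5% and 12.3% lay close to the 12.9% and 12.8% of a Poisson spread.

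RUNX1 is a Runt domain factor of definitive hematopoiesis that is also active in microglia. Runx1 (chr16:92601466-92826074) had 6335 UMIs in the control library, or 1319 CPM (1287 to 1352), and 2268 UMIs in the 4E-BP1 cKO library, or 1308 CPM (1254 to 1363). The sums were nearly equal, at a ratio of 0.992 (0.945 to 1.04), but the direction differed between classes of cells by ribosomal share, as described further on. Runx1 was detected in 83.6% and 80% of cells. Its thinned counts varied 1.83 and 2.33 times as much as their mean, the latter the highest such value among the factors.

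MAF is a large leucine zipper factor that is expressed in mature microglia and other tissue macrophages. Maf, on chromosome 8, had 3518 UMIs in the control library, or 732 CPM (708 to 757), and 882 UMIs in the 4E-BP1 cKO library, or 509 CPM (476 to 543). The 4E-BP1 cKO library was the lower, without overlap, at a ratio of 0.694 (0.644 to 0.748). Maf was detected in 72.1% of control cells (69.4 to 74.7) and 64.7% of 4E-BP1 cKO cells (60.1 to 69.2), and at 1000 UMIs per cell in 43.8% (40.7 to 46.9) and 35.8% (30.8 to 41.0). These shares differed in the same direction, and at 1000 UMIs their intervals overlapped slightly. The log2 ratio of -0.53 lay between -0.60 and -0.46 over the 14 ways of computing it, passing 1.5-fold after thinning. The antisense gene Gm15655 inside the Maf locus had 240 UMIs in control and 61 in 4E-BP1 cKO cells, a ratio of 0.704 (0.523 to 0.936).

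**Figure D2:**
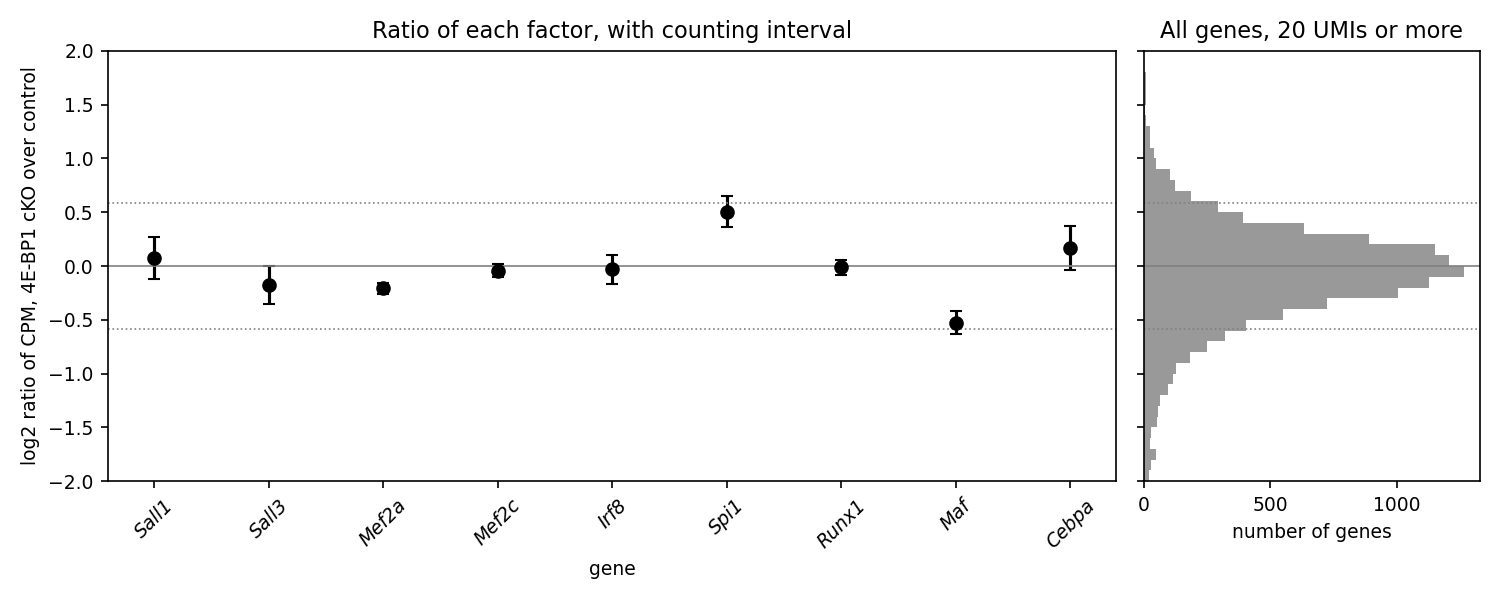
Left, log2 ratio of CPM, 4E-BP1 cKO over control, for each factor with its exact conditional 95% interval (counting error only); right, the number of genes at each log2 ratio among genes with at least 20 UMIs, drawn from -2 to 2. Dotted lines mark a ratio of 1.5 in either direction; Spi1 at 0.50 and Maf at -0.53 lie just inside them, and the other factors lie between -0.21 and 0.17.

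Family relatives and partners of the 9 factors were described from a list of 28 genes, of which 20 had at least 20 UMIs. None of the 20 passed a ratio of 1.5 with its interval (0 higher, 0 lower), beside 2.52% and 5.85% of all genes. By the interval alone 6 were higher in the 4E-BP1 cKO library (among them Irf1, Irf5, Maff, Mafg and Cebpb) and 2 were lower (Irf2 and Cbfb). The same rule was met by 8.02% of all genes in the higher and 12.7% in the lower direction, and by 27.1% and 31.5% of the well counted genes given earlier. Cebpb, a stress-responsive relative of Cebpa, was at 363 and 529 CPM, a ratio of 1.46 (1.34 to 1.58). Cbfb, the partner subunit that strengthens DNA binding by RUNX1, was at 92.0 and 69.8 CPM, a ratio of 0.758 (0.615 to 0.929). Sall4, Spib and Nrl had no UMI in either library.

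Of 31 other regulators of microglia and macrophages, 24 had at least 20 UMIs. Of these, 1 was higher and 0 were lower past 1.5-fold with the interval, beside 2.52% and 5.85% of all genes. It was the nuclear receptor gene Nr1h2, at 11.7 and 23.6 CPM (56 and 41 UMIs), a ratio of 2.03 (1.32 to 3.09). By the interval alone 5 were higher and 7 were lower, the latter being Nr3c1, Mitf, Fli1, Zeb2, Stat3, Klf4 and Etv6, beside 8.02% and 12.7% of all genes and 27.1% and 31.5% of the well counted ones. Zeb2, a zinc finger factor of microglial identity, was at 1891 and 1599 CPM, a ratio of 0.845 (0.810 to 0.882). Of 16 microglial identity genes, 4 were higher and 4 were lower by the interval, beside the same shares, with a median log2 ratio of -0.01. Only Tmem119 among the 16 passed 1.5-fold, at a ratio of 0.329, beside 5.85% of all genes that were lower by that rule.

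Levels of different factors are given per length as a description only. UMIs from the 3′ end need not scale with length, and neither the paper nor the labels say whether intronic reads were counted, so the order of the values depends on the scale. Per kb of exon in the control library, the values were 149 CPM per kb for Mef2a, then Runx1 (104), Mef2c (94.8), Spi1 (79.5), Maf (79.0), Cebpa (55.1), Irf8 (37.3), Sall3 (27.1) and Sall1 (24.3). The neighbors Spi1 and Maf, and Sall3 and Sall1, did not differ beyond their counting intervals. Per kb of genomic span the order was another, with Cebpa at 55.1 CPM per kb, then Maf (29.4), Mef2a (16.2), Irf8 (16.1), Sall3 (10.7), Mef2c (9.94), Sall1 (9.76), Spi1 (7.16) and Runx1 (5.87). On this scale the intervals of Mef2a and Irf8 overlapped, as did those of Sall3, Mef2c and Sall1 with their neighbors in this group. In the 4E-BP1 cKO library, per kb of exon, Spi1 (113) overlapped with Runx1, and Maf (54.8) overlapped with Cebpa (61.9).

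Together the 9 factors made up 0.712% of the UMIs of the control and 0.662% of those of the 4E-BP1 cKO library. At full depth a control cell held UMIs of 5.48 ± 2.04 factors (SD, 1147 cells) and a 4E-BP1 cKO cell of 5.41 ± 2.18 (SD, 445 cells). All 9 were found in 75 control cells (6.54%) and 29 4E-BP1 cKO cells (6.52%). Cells without any factor numbered 12 and 1. At 1000 UMIs per cell the control mean was 3.51 ± 1.21 (SD, 1039 cells) and the 4E-BP1 cKO mean 3.43 ± 1.36 (SD, 358 cells). At that depth 0 cells held all 9. The SD describes the spread among cells and does not measure how far the means of libraries can differ.

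Covariation was measured across cells as the Pearson correlation of residuals, the deviation of each count from that given by the depth of the cell and the gene's rate in its library. Cells of a library share its preparation, so the values are descriptions without p-values. Over the 36 pairs of factors the median correlation was -0.002 among control and -0.001 among 4E-BP1 cKO cells. The range was -0.162 to 0.224 over 1147 control cells and -0.147 to 0.297 over 445 4E-BP1 cKO cells. Absolute values above 0.1 were found in 7 and 9 of 36 pairs, beside 13.03% and 19.5% of all pairs among 1706 genes with at least 200 UMIs in each library. The median pair was thus close to 0. The sign was the same in both libraries for 33 of 36 pairs, a share that is not given here over all gene pairs.

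Only 3 pairs were above 0.1 in both libraries, likewise without a share over all gene pairs, and all 3 included Mef2c. Mef2a and Mef2c were correlated at 0.224 in the control and 0.135 in the 4E-BP1 cKO library. Mef2c and Maf were correlated at 0.169 and 0.189, and Sall1 and Mef2c at 0.128 and 0.108. For Sall1 and Mef2c, leaving out the cell that weighed most on the pair gave 0.114 and 0.0777. Among cells with at least 3% ribosomal protein UMIs, Mef2c and Maf reached 0.325 and 0.298, compared with 0.0371 and 0.0887 among cells under 3%. Their correlation was thus higher in the cells with the higher ribosomal share. Those cells were also deeper, at medians of 5512.5 and 4716 UMIs against 2354 and 1971.5. The part of depth in this difference was not tested. Spi1 was negatively correlated with Mef2a (-0.107 and -0.104), and with Mef2c at -0.162 and -0.0911. Within the cells under 3% and those of at least 3%, Spi1 and Mef2c were at -0.147 and -0.134 in the control and at -0.166 and 0.0138 in the 4E-BP1 cKO library. For Spi1 and Mef2a these values were -0.0432 and -0.0609 in the control, and -0.109 and -0.0537 in 4E-BP1 cKO cells. For Mef2a and Mef2c they were 0.129 and 0.255 in the control, and 0.0150 and 0.159 in 4E-BP1 cKO cells. The highest value of all, 0.297 between Sall3 and Mef2a in the 4E-BP1 cKO library, fell to 0.0974 without 1 cell, and was 0.0670 in the control library.

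**Figure D3:**
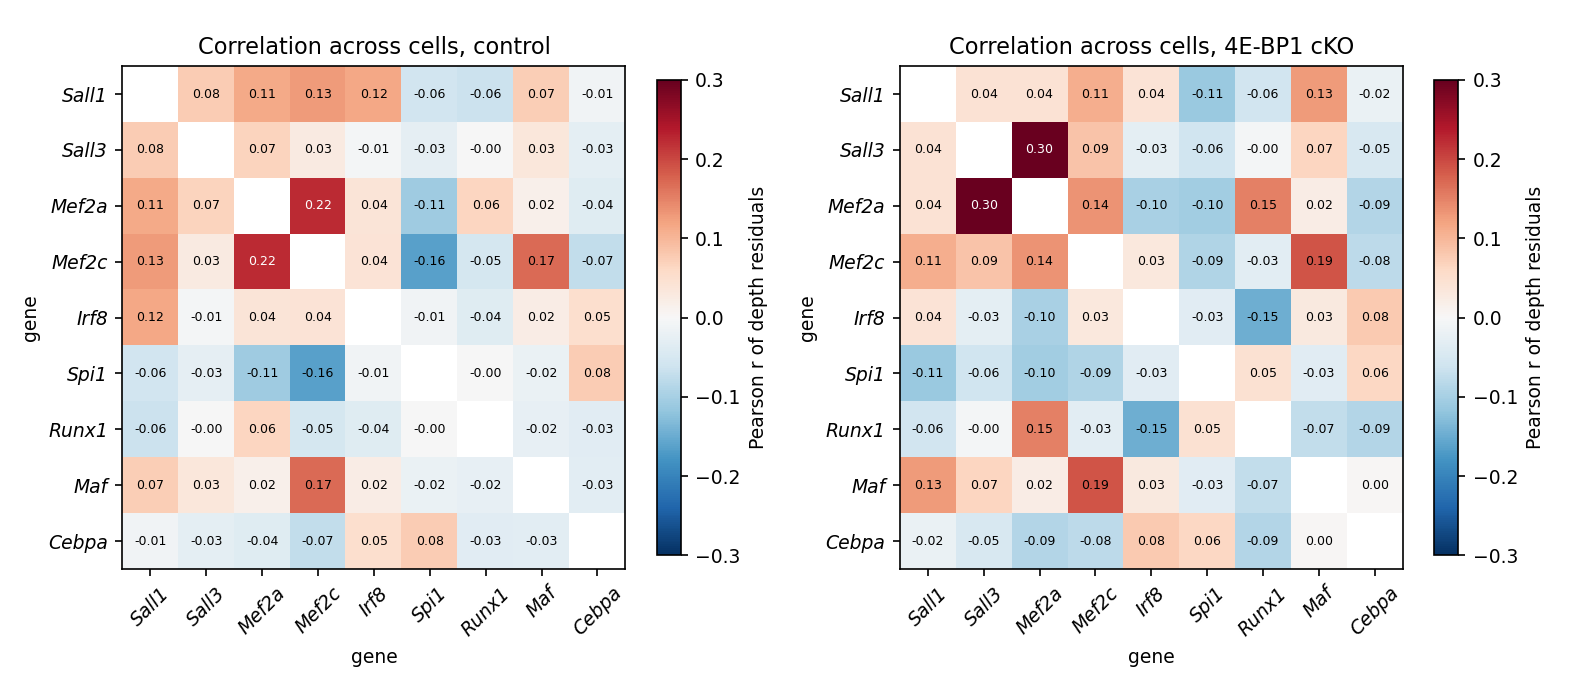
Pearson correlation of depth residuals for each pair of the 9 factors, across 1147 control cells (left) and 445 4E-BP1 cKO cells (right), with color from -0.3 to 0.3. Mef2c was positively correlated with Mef2a, Maf and Sall1 in both libraries; the Sall3 and Mef2a value of 0.297 in the 4E-BP1 cKO library rests on 1 cell.

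Among the 1706 genes, those most like each factor, ranked by the lower correlation of the 2 libraries, differed from factor to factor. For Sall1 they were Rapgef5 (0.168 in the control and 0.174 in the 4E-BP1 cKO library) and the purinergic receptor gene P2ry12 (0.166 and 0.261). For Maf they were the receptor genes P2ry13 (0.180 and 0.223) and Siglech (0.183 and 0.172). For Irf8 the nearest was the fractalkine receptor gene Cx3cr1 (0.141 and 0.112). Genes of microglial surface receptors were thus among the nearest to Sall1, Maf and Irf8.

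For Sall3 the receptor gene Gpr34 (0.0968 and 0.101) was among the nearest. For Mef2a they were its antisense neighbor Lysmd4 (0.473 and 0.424) and Plxdc2 (0.327 and 0.364), and for Mef2c they were Srgap2 (0.310 and 0.311) and Mbnl1 (0.290 and 0.287). Runx1 was nearest to the nuclear noncoding RNA Neat1 (0.219 and 0.218) and to Spag9 (0.243 and 0.213). Spi1 was nearest to Atp6v0c (0.234 and 0.198), a subunit of the proton pump, and to the initiation factor gene Eif1 (0.214 and 0.169). For Cebpa the nearest was the histone gene H3f3b (0.156 and 0.184).

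The summed level of the 16 identity genes was correlated with each factor in the same way. Its correlation was 0.158 and 0.267 with Sall1, 0.175 and 0.281 with Maf, and 0.152 and 0.141 with Irf8. It was -0.239 and -0.207 with Runx1, the only factor below -0.2 in both libraries. With Spi1 it was 0.0332 and 0.0199, close to 0.

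The cells of these libraries differed widely in the share of their UMIs that came from ribosomal protein genes, with a median of 2.22% in the control and 3.53% in the 4E-BP1 cKO library. A share under 3% was found for 657 control cells (57.3%) and for 212 cells (47.6%) of the 4E-BP1 cKO library. They were shallower, at medians of 2354 and 1971.5 UMIs against 5512.5 and 4716 in the other cells. The limit cuts a range and does not define a cell type: 199 control and 67 4E-BP1 cKO cells lay between 2 and 4%. Levels of the factors in cells under 3% and of at least 3% were compared within each library.

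Mef2a was higher in the cells of low ribosomal share, at 2961 against 1883 CPM in the control library, a ratio of 1.57 (1.51 to 1.63). In the 4E-BP1 cKO library it was at 2799 against 1602 CPM, a ratio of 1.75 (1.63 to 1.87). Over 4 finer classes, from under 2% to at least 10%, its level went from 3020 to 1140 CPM in the control and from 2870 to 1110 CPM in the 4E-BP1 cKO library. The course of Mef2a over the classes was similar in both libraries.

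Runx1 was at 1564 against 1163 CPM in the control library, a ratio of 1.34 (1.28 to 1.41), and at 1903 against 1020 CPM in the 4E-BP1 cKO library, a ratio of 1.87 (1.72 to 2.03). These intervals did not overlap. Read between the libraries, Runx1 was higher in the 4E-BP1 cKO library among cells under 3% (log2 ratio 0.28, 0.18 to 0.38) and lower among cells of at least 3% (-0.19, -0.29 to -0.09). The difference between these values was not tested, since each rests on 1 library per genotype. Under 2%, the Runx1 level was 1659 CPM in the control and 1888 CPM in the 4E-BP1 cKO library. A Runx1 UMI was nonetheless found in 87.4% of control and 76.3% of 4E-BP1 cKO cells of that class. Cells of that class had median depths of 2451 and 1979 UMIs. From 2 to 5% the shares of cells with Runx1 were 78.9% and 80.6%.

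Mef2c was higher in cells of low ribosomal share at ratios of 1.29 (1.24 to 1.35) and 1.38 (1.28 to 1.49), and Sall3 at 1.28 (1.13 to 1.45) and 1.36 (1.09 to 1.69). Spi1 was lower in them, at 176 against 281 CPM in the control library, a ratio of 0.628 (0.551 to 0.715), and at 290 against 365 CPM in the 4E-BP1 cKO library, a ratio of 0.795 (0.660 to 0.954). Irf8 was lower as well, at ratios of 0.857 (0.776 to 0.947) and 0.783 (0.652 to 0.936). So was Cebpa, at 0.799 (0.680 to 0.937) and 0.747 (0.565 to 0.977). The intervals of Sall1 (1.11 and 0.907) and Maf (1.02 and 1.09) held 1 in both libraries. By the interval alone 4 of 9 factors were thus higher in cells under 3% in the control library, beside 27.6% of 11083 genes, and 3 were lower, beside 19.9%. The same 4 and 3 factors were found in the 4E-BP1 cKO library, beside 23.8% and 16.8% of 8022 genes. These shares are over all genes with at least 20 UMIs in the library, and more counted genes clear an interval more often. For this comparison no share over genes counted as well as the factors is given, so a surplus among the factors cannot be read from it. Past 1.5-fold in the control library were Mef2a (1 higher, beside 17.5%) and Spi1 (1 lower, beside 16.6%). Past 1.5-fold in the 4E-BP1 cKO library were Mef2a and Runx1 (2 higher, beside 19.5%) and none that was lower (0, beside 15.3%).

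**Figure D4:**
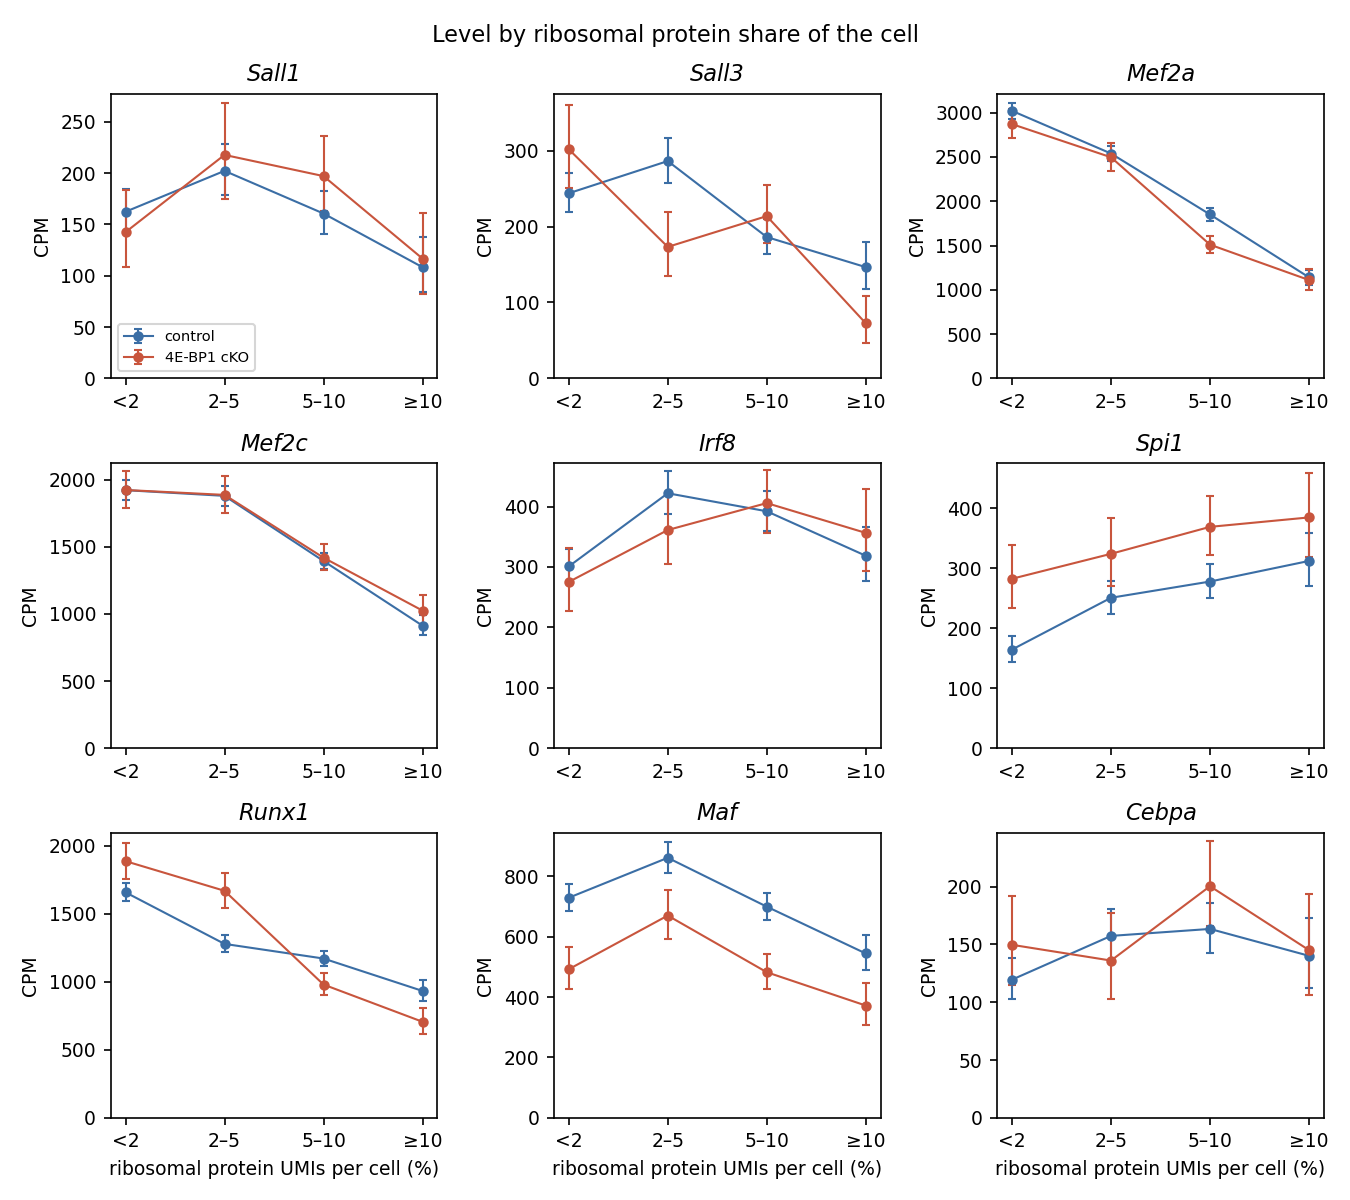
CPM of each factor in 4 classes of cells by ribosomal protein share, for the control and the 4E-BP1 cKO library, with exact Poisson 95% intervals. Mef2a went from 3020 to 1140 CPM in the control library, Spi1 was higher and Maf lower in the 4E-BP1 cKO library in all 4 classes, and the lines of Runx1 cross.

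The factors were also set beside genes of like genomic span. Over 1699 genes with a known span, the Spearman rho of span with the log2 ratio of low to higher ribosomal share was 0.737 in the control and 0.751 in the 4E-BP1 cKO library, across genes, which are not independent replicates. Genes of at least 100 kb, the class of Mef2a (142 kb), Mef2c (163 kb) and Runx1 (225 kb), had a median log2 ratio of 0.56 and 0.75. Mef2a and Runx1, at 0.65 and 0.43 in the control and 0.81 and 0.90 in the 4E-BP1 cKO library, lay between the quartiles of that class. Mef2c, at 0.37 and 0.46, lay just below its lower quartiles of 0.40 and 0.48, which its counting intervals held. Genes under 10 kb, the class of Cebpa (2.64 kb), had medians of -1.14 and -1.21, and Cebpa was at -0.32 and -0.42, just above the upper quartiles of -0.35 and -0.43, which its counting intervals held. In the class of 10 to 30 kb, with medians of -0.25 and -0.27, Sall3 was at 0.36 and 0.44. These values lay above the upper quartiles of 0.19 and 0.20, which the counting intervals of Sall3 held.

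Spi1 was likewise outside the quartiles of its span class. Genes of 30 to 100 kb had medians of 0.28 and 0.38 and lower quartiles of 0.06 and 0.02. Spi1 (33.5 kb) was at -0.67 and -0.33, below the lower quartile in both libraries. Its span is close to the 30 kb limit, however. Between the quartiles of the 10 to 30 kb class, -0.72 to 0.19 and -0.73 to 0.20, both values would lie inside. The place of Spi1 thus depends on where the classes were cut. The part of gene span in the levels of the factors was not tested further.

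**Figure D5:**
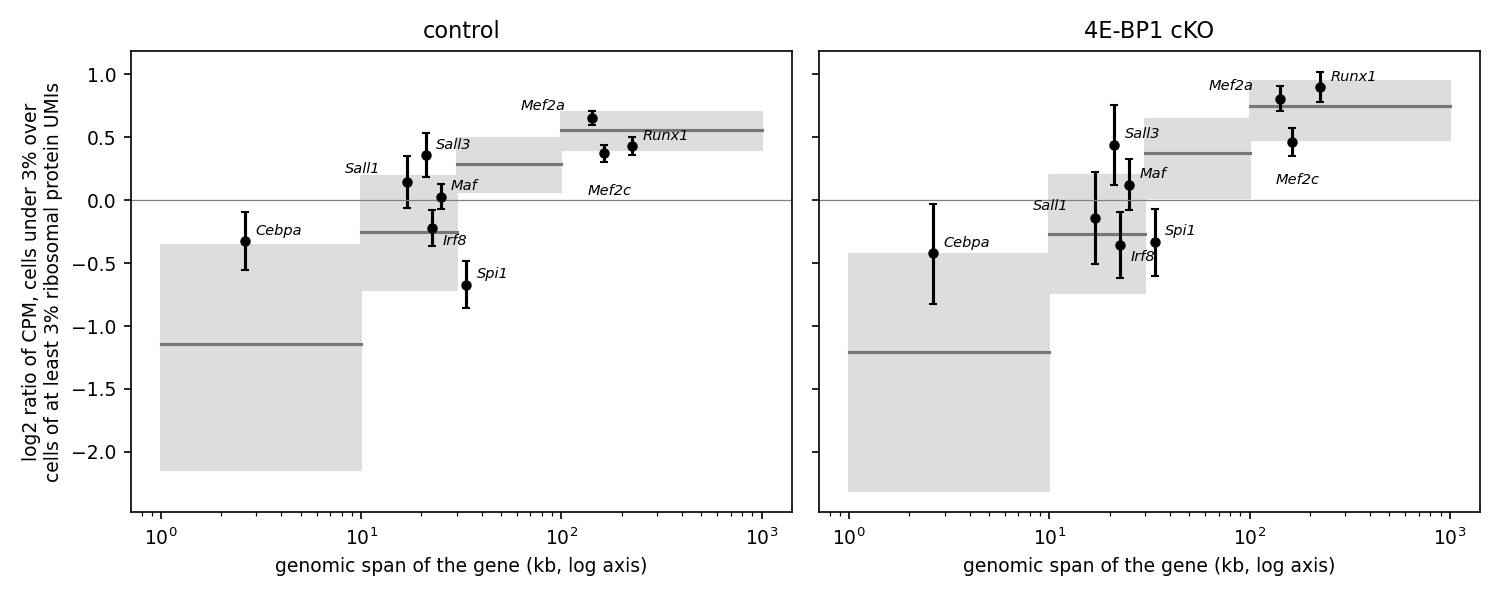
Log2 ratio of CPM in cells under 3% over cells of at least 3% ribosomal protein UMIs against genomic span (kb, log axis), in the control (left) and the 4E-BP1 cKO library (right). Points are the 9 factors with exact conditional 95% intervals, and grey lines and bands are the medians and quartiles of 1699 genes in 4 span classes. Spi1, at -0.67 and -0.33, lies below the band of its class but within the range of the band for 10 to 30 kb, whose limit is close to its span.

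The differences of Spi1 and Maf between the libraries were followed through 11 classes of cells, 4 by ribosomal protein share, 4 by depth and 3 by the share of early-response genes. Maf was lower in the 4E-BP1 cKO library in 11 of 11 classes, with an interval below 1 in 10 of them and log2 ratios from -0.68 to -0.26. Spi1 was higher in 11 of 11, with an interval above 1 in 8 and log2 ratios from 0.19 to 0.78. Sall3, by contrast, was higher in 5 and lower in 6 classes. Mef2a was higher in 3 and lower in 8, with an interval above 1 in 2 classes and below 1 in 5. Its log2 ratios went from -0.31 to 0.64. The classes overlap, since each cell falls in 1 class of each kind, so that these counts describe the same cells 3 times. Of the 9 factors, Spi1 and Maf had the ratios furthest from 1 over all these cells. A like direction in most classes follows largely from that, so the counts are no separate support.

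Early-response genes such as Fos, Jun and Egr1 are induced by handling and dissociation as well as by signaling. Their 10 genes took 1.61% of UMIs in the control and 2.09% in the 4E-BP1 cKO library, and 9 of the 10 were higher in the latter by the interval, beside 8.02% of all genes and 27.1% of the well counted ones. The highest tertile of all cells by this share held 28.4% of control and 46.1% of 4E-BP1 cKO cells. From the lowest to the highest tertile Spi1 went from 208 through 236 to 273 CPM in the control library and from 236 through 331 to 375 CPM in the 4E-BP1 cKO library. In the lowest tertile the libraries' intervals for Spi1 overlapped (185 to 232 and 181 to 303), and in the middle and highest tertile they did not.

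Maf went from 829 through 687 to 691 CPM in the control library and from 694 through 515 to 454 CPM in the 4E-BP1 cKO library. Cebpa went from 111 through 143 to 177 CPM in the control library and from 107 through 130 to 197 CPM in the 4E-BP1 cKO library. It was thus higher in cells with more early-response RNA in both. From the lowest to the highest tertile the median ribosomal share also rose, from 1.59% to 5.13% in the control and from 1.73% to 5.57% in the 4E-BP1 cKO library. Median depth rose from 2727 to 4560.5 and from 1790.5 to 3896 UMIs. These were not told apart for Cebpa. Maf was lower in the 4E-BP1 cKO library within all 11 classes, but by differing amounts. Its log2 ratios were -0.26, -0.41 and -0.61 from the lowest to the highest tertile. In cells under 1000 UMIs its interval held 0 (-0.99 to 0.21). The part of early-response genes, depth and ribosomal share in the differences of Spi1 and Maf between the libraries was not tested.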

How the data were processed

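The deposited values are raw counts of UMIs for each gene and barcode, which the authors obtained with Cell Ranger (8.0.1 in the file headers) on mm10. Only barcodes called as cells are included, and these deposited counts were not normalized. The annotation release, and the handling of introns and strand, are not given in the sources used here. The 1216 control and 474 4E-BP1 cKO barcodes were filtered as stated in the report, and doublets were not removed. Scrublet called 4 and 11 doublets, which were left out in an alternative. The paper removed doublets with scDblFinder under the same limits and kept fewer cells of each group. The Scrublet alternative thus does not stand for that removal. The members and gene lists were chosen with earlier results of these data known. The genes named are the 9 factors, the relatives, regulators, identity and early-response genes of fixed lists, the 2 genes most like each factor, Eif4ebp1 and overlapping genes. Some genes that this rule names are not reported here. The overlapping genes were named after their values were seen, as were the span classes and the pairs examined without 1 cell.

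Spans and exon lengths came from GENCODE vM39 (GRCm39) and were used as lengths only. Coordinates and promoters came from RefSeq (GRCm38.p6). The RefSeq row of Maf is shorter than its GENCODE model, so its coordinates are not given. Thinning was random with a fixed seed. Cells of low depth give less precise shares, and all intervals cover counting error at the 95% level. Python 3.11.15 with numpy 2.4.6, scipy 1.17.1, pandas 2.3.3 and scanpy 1.11.5 (Scrublet) was used, and edgeR 4.0.16 under R 4.3.3 for TMM factors only. The ratios, their intervals, thinning and the correlations were tested on simulated data. For the ratios and intervals the simulated totals were Poisson counts, so the wider spread among cells was not covered. The alternatives were other limits on mitochondrial UMIs (10%) and detected genes (500), doublet removal, other totals, thinning, pseudocounts of 1 and 10 CPM, cell subsets, other correlations and other ribosomal limits. No sample was left out.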

Additional observations from a re-analysis of the deposited data

Results flagged for a closer look

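Runx1 was looked at again because the libraries differed in opposite directions in both classes of ribosomal protein share. The log2 ratio, 4E-BP1 cKO against control, was 0.28 in cells under 3% ribosomal protein UMIs and -0.19 in cells of at least 3%. Each interval left out 0. Runx1 counts varied among cells more than Poisson counts do, however, so these intervals are too narrow. At the 3% limit Runx1 alone of the 9 factors met this condition, a count without a share over all genes. In the finer classes Sall3 also went both ways. It was at 0.31 (0.002 to 0.61) under 2%, and at -0.73 (-1.11 to -0.35) from 2 to 5%. From 5 to 10% it was at 0.20 (-0.12 to 0.51), and at 10% or more at -1.01 (-1.74 to -0.34). The Sall3 values thus did not follow the order of the classes. The 2 negative values rest on 70 and 23 UMIs of the 4E-BP1 cKO library. For neither gene was the difference between the classes tested, with 1 library per genotype. The check was defined after the values were seen.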

How the results depend on the processing

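No paired analysis was possible because each genotype had 1 library, and for the same reason no replicate could be left out. Of 117 recomputed log2 ratios between the libraries, 106 stayed within the counting interval of the reported value. Spi1 stayed above 0 and Maf below it under all alternatives. Thinning to 1000 UMIs gave -0.20 for Sall1 and reversed Sall3 to 0.19. The mean of the per-cell CPM reversed Sall3 to 0.092 and gave -0.020 for Mef2a, 0.069 for Mef2c and 0.14 for Runx1. Cells under 3% ribosomal protein UMIs gave -0.081 for Mef2a, 0.037 for Mef2c, 0.72 for Spi1 and 0.28 for Runx1, and the other cells gave -0.19 for Runx1. The number of factors past 1.5-fold was 1 after thinning (Maf), beside 7.80% of all genes. It was 1 in cells under 3% (Spi1), beside 7.76% of all genes. By the interval alone, without a minimum fold, 4 factors were counted, beside 20.7% of all genes and 58.6% of the well counted ones. The cause was not tested.

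The mean number of factors detected was, in the control and the 4E-BP1 cKO library, 5.48 and 5.41 with all UMIs, 2.37 and 2.29 at 500 UMIs, and 4.84 and 4.88 at 2000 UMIs, as depth sets detection. All 16 recomputed correlation medians lay between -0.0098 and 0.052. The Pearson correlation of log-normalized values gave the highest, 0.049 in the control and 0.052 in the 4E-BP1 cKO library. Between the ribosomal classes in the control library, a limit of 2% gave log2 ratios of 0.16 for Sall3, -0.37 for Irf8 and 0.51 for Runx1. A limit of 4% gave 0.63 for Sall3, 0.75 for Mef2a, 0.48 for Mef2c, -0.070 for Irf8 and 0.16 for Maf. Leaving ribosomal protein and mitochondrial genes out of the total gave 0.56 for Mef2a, 0.28 for Mef2c and 0.33 for Runx1. In the 4E-BP1 cKO library the limit of 2% gave 0.85 for Sall3 and 0.75 for Runx1, the limit of 4% gave 0.92 for Mef2a, and the reduced total gave 0.70 for Mef2a. Sall1 and Maf, whose reported intervals held 0, changed sign: in the control library the limit of 2% gave -0.040 for Sall1 and -0.0083 for Maf and the reduced total -0.065 for Maf, while among 4E-BP1 cKO cells the limit of 2% gave -0.060 for Maf.

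With 1 library per genotype, differences between mice, sorts or captures cannot be told apart from those of genotype. The 4E-BP1 cKO library held 445 cells, which limits the less counted factors, Sall1, Sall3 and Cebpa, most.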
